A study of Oryza sativa with 8 samples.

Results

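The comparison described here is between seedlings of OE1, a transgenic rice line labelled as overexpressing ScOYE3, and seedlings of the wild-type cultivar ZH11, both exposed to 2-nitroaniline. Its members are the genes with at least 1 TPM (a transcript abundance scaled to the same total in every library) in 2 or more of the 4 treated libraries, which were 24336 of the 57403 genes in the deposited matrix. Of these, 23080 carried LOC_Os locus identifiers and 1238 were genes assembled from the reads (MSTRG identifiers), which have no described function unless a protein match is given. Treated OE1 and treated ZH11 plants were grown hydroponically to 2 weeks of age and then kept with 0.8 mM 2-nitroaniline for 8 h. Untreated OE1 and untreated ZH11 plants of the same age were raised in parallel. Each of the 4 groups had 2 libraries, and each library was made from whole seedlings of 20 pooled plants. Nothing in the sources used here says that the 2 libraries of a group came from separate cultures, so the p-values measure the spread between these libraries, which may be technical. OE1 is 1 line, and the promoter driving its transgene was not given in the sources used here, so that what the transgene does and what else may differ in this line cannot be told apart.

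Old yellow enzymes are flavin-containing NADPH oxidoreductases, and OYE3 is one of those found in budding yeast. They reduce activated double bonds and nitro groups in a wide range of small molecules. Plants carry relatives of them, the 12-oxophytodienoate reductases, some of which act in jasmonate synthesis. 2-Nitroaniline is an aromatic amine with a nitro group that is used in making dyes and other chemicals. Plant cells generally handle such foreign compounds by oxidising or reducing them (cytochromes P450, oxidoreductases), by coupling them to sugars, glutathione or acyl groups (UDP-glycosyltransferases, glutathione S-transferases, BAHD acyltransferases), and by moving the products into the vacuole or cell wall.

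The libraries held 42.1 to 56.5 M reads. The spread between replicates differed among groups: the median absolute log2 difference between the 2 libraries was 0.17 in treated OE1 and 0.45 in treated ZH11, and replicates lay at least 2-fold apart for 390 genes in treated OE1 and 3143 in treated ZH11. The GC content of the reads was 55.43% and 55.32% in treated OE1, and 54.62% and 52.04% in treated ZH11 replicates 1 and 2. Mean read lengths were 146.01 and 146.85 nt in treated OE1, and 146.23 and 149.1 nt in the same ZH11 libraries. Untreated ZH11 replicate 2, which the untreated and between-condition comparisons use, had 53.51% GC and 149.78 nt, beside 54.62% to 54.76% and 144.95 to 145.82 nt in the other 3 untreated libraries. Treated ZH11 replicate 2 stood apart from the other treated libraries in both, and against it the difference of the members went with gene length, as described at the end, so genes were also compared with treated ZH11 replicate 1 alone. The 29 genes of the shoot marker list summed to 52960 and 53221 TPM in treated OE1 and 57747 and 52172 TPM in treated ZH11, and the 6 root markers to 404 and 350 TPM in treated OE1 and 350 and 398 TPM in treated ZH11. In untreated plants the root markers summed to 600 and 611 TPM in OE1 and 398 and 359 TPM in ZH11, with a median log2 difference of 0.41. Single root markers ran from -0.63 (LOC_Os02g37190) to 0.78 (LOC_Os03g01700). Most of the sum came from LOC_Os02g51110 and LOC_Os03g01700, with means of 370 and 189 TPM in untreated OE1 and 226 and 110 TPM in untreated ZH11. The part of the root markers in the untreated and between-condition comparisons was not tested. Both sets were detected in every library, as the whole-plant label states, and none of their genes was called. ScOYE3 is named in no entry of the matrix, and transgene expression was not analysed here.

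In treated OE1, 202 genes were higher and 39 lower than in treated ZH11, at a limma adjusted p under 0.05 and at least a 2-fold difference on the log2(TPM + 1) scale. These are 0.799% and 0.154% of the 25281 genes tested, and 3812 genes had an unadjusted p under 0.05. All 241 called genes were on the called side of treated ZH11 replicate 1 alone, and 199 of the 202 and 34 of the 39 differed from it at least 2-fold. The median log2 difference was 2.03 among the higher genes and -1.41 among the lower genes. The groups did not overlap in any of the 241. Among all tested genes, treated OE1 lay wholly above treated ZH11 in 23.0% and wholly below it in 19.3%. The counts depend on libraries: limma called 50 higher and 3 lower without treated OE1 replicate 1, 46 and 2 without treated OE1 replicate 2, 70 and 5 without either of the untreated OE1 libraries, and 160 and 17 without either of the untreated ZH11 libraries. Leaving out treated ZH11 replicate 1 gave 2093 and 1761. Leaving out treated ZH11 replicate 2 gave 171 and 44, which kept 134 of the 202 and 26 of the 39. With only the 4 treated libraries in the fit, 42 genes were higher and 2 lower. Of the 47 called genes chosen for naming by rule, 17 were called whichever of the 8 libraries was left out.

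Many of the higher genes differed between the genotypes without the chemical as well. Among untreated plants 100 genes were called higher in OE1 (0.396% of those tested) and 12 lower (0.0475%), in libraries that the treated comparison does not use, although all 8 libraries share the estimate of spread. Of the 202 genes higher in treated OE1, 83 were also higher in untreated OE1, which is 41.1% of the treated list and 83.0% of the untreated list. Their median log2 difference was 2.78 under treatment and 2.85 without it. The overlap is a description only, because 81 of the 202 reached 1 TPM in OE1 libraries alone and so entered the tests only through OE1. The overlap among the other 121 is not given here. Another 75 of the 202 had an untreated difference within 0.5 of 0, and 2 were called in the opposite direction. Of the 39 lower genes, 5 were also lower in untreated OE1 (12.8% of the treated list and 41.7% of the untreated list), and 19 had an untreated difference within 0.5.

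**Figure D1:**
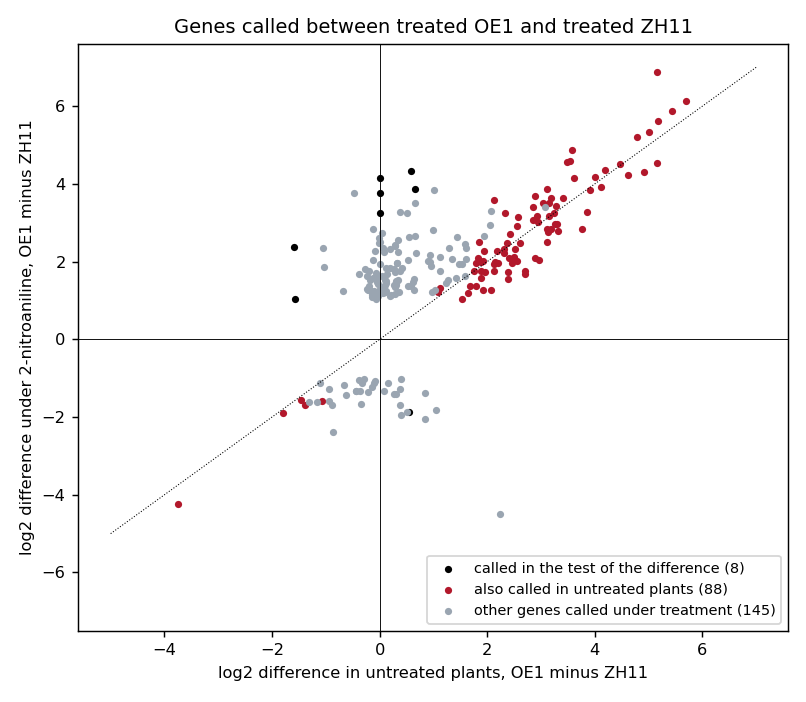
Each point is a gene called between treated OE1 and treated ZH11; the horizontal axis is its log2(TPM + 1) difference in untreated plants and the vertical axis that under 2-nitroaniline, both OE1 minus ZH11, with the dotted line marking equal differences. The 88 genes also called in untreated plants in the same direction lie along the dotted line, and 8 genes in black were called in the test of the difference between the 2 conditions.

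Among the genes that differed in both conditions, the nitrite reductase gene had the largest difference of those described as metabolic enzymes. LOC_Os02g52730 on chromosome 2 is annotated as ferredoxin-nitrite reductase, the chloroplast enzyme that reduces nitrite to ammonium. It had 32.2 and 27.4 TPM in treated OE1, against 0.66 and 0.04 TPM in treated ZH11. Both OE1 libraries were far above both ZH11 libraries (log2 difference 4.55 ± 0.25 SE, n = 2 per group, limma adjusted p = 0.000356). Untreated plants showed the same order, with 44.1 and 41.5 TPM in OE1 and 0.32 and 0.14 TPM in ZH11. This gene reached 1 TPM in no ZH11 library, so it entered the tests only through OE1 and its call is a description only. Of the 26 nitrogen metabolism genes it was the only gene called higher, and 1 was called lower. LOC_Os11g35300, whose best protein match is a maize cis-zeatin O-glucosyltransferase, an enzyme that attaches sugar to a cytokinin, had 35.2 and 27.5 TPM in treated OE1 and 1.21 and 0.13 TPM in treated ZH11 (4.35 ± 0.31, adjusted p = 0.00124). LOC_Os01g57700, matched to a TauE/SafE-type membrane protein, had 18.8 and 20.7 TPM in treated OE1 and 1.07 and 0.83 TPM in treated ZH11 (3.41 ± 0.19, adjusted p = 0.000397). Both genes were called in untreated plants too, with differences of 4.19 and 2.86.

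The most abundant of all called genes, named here after its values were seen, was LOC_Os07g25050, annotated as a thionin-like peptide, a class of small cysteine-rich peptides many of which are antimicrobial. It reached 3616 and 4129 TPM in treated OE1, against 1069 and 906 TPM in treated ZH11 (1.97 ± 0.15, limma adjusted p = 0.00177), and 6446 and 6336 TPM in untreated OE1, against 1116 and 1189 TPM in untreated ZH11. LOC_Os12g02210, matched to a RING-H2 finger protein of the kind that marks other proteins for degradation, had means of 114 ± 19.9 TPM in treated OE1 and 11.9 ± 10.2 TPM in treated ZH11 (SD, n = 2 each; 3.41 ± 0.51, limma adjusted p = 0.0346). Its treated ZH11 libraries were far from each other, at 19.1 and 4.69 TPM, and the difference was 2.50 against replicate 1 alone. LOC_Os06g13700, a short gene of 303 nt whose match is a formin-like protein, had 14.8 and 18.7 TPM in treated OE1 and 0.48 and 0.62 TPM in treated ZH11 (3.51 ± 0.20, adjusted p = 0.000363). The assembled gene MSTRG.5591, matched to a vacuolar-sorting receptor, had 10.6 and 12.3 TPM in treated OE1 and 0.08 and 0 TPM in treated ZH11, with an adjusted p of 0.000939. LOC_Os02g03640 and LOC_Os01g15740, described only as expressed proteins, had 14.6 and 12.6 TPM and 11.5 and 12.2 TPM in treated OE1, against at most 0.13 TPM in any treated ZH11 library. LOC_Os01g15740 carries a BAHD acyltransferase domain and was the only gene called of 65 members with it. The genes of this and the preceding paragraph were called without each of the 8 libraries in turn, except LOC_Os12g02210, whose call ended without any OE1 or any untreated ZH11 library. MSTRG.5591, LOC_Os02g03640 and LOC_Os01g15740 reached 1 TPM in no ZH11 library and so entered the tests only through OE1. Their calls, like that of the nitrite reductase gene, are a description only.

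A large share of the higher genes have no described function or look like mobile elements. Of the 202, 50 were assembled genes, 22 were annotated as transposon or retrotransposon proteins, and 46 were listed at 0 in both treated ZH11 libraries, 34 of them in all 4 ZH11 libraries. The filter bears on these counts: 81 of the 202 reached 1 TPM in no ZH11 library, and 9 of those in no library but treated OE1, so such genes could enter the test only where they were high in OE1. The other genes gave 121 higher and 39 lower calls. Of the 39 lower genes, 2 reached 1 TPM in no OE1 library. Among the 83 that were higher in both conditions there were 31 assembled and 14 transposon-annotated genes. Of the 847 transposon-annotated members 22 were higher (2.6%) and 5 lower (0.59%), beside 0.799% and 0.154% over all genes tested. The median log2 difference of the 847 was -0.23, or -0.03 against treated ZH11 replicate 1 alone. The retrotransposon-annotated gene LOC_Os07g32710 had 294 and 224 TPM in treated OE1 and 7.37 and 4.88 TPM in treated ZH11 (5.20 ± 0.40, limma adjusted p = 0.00161). LOC_Os06g45810, whose match is the maize Ac transposase, an enzyme that moves hAT-type DNA elements, had 114 and 98.4 TPM in treated OE1 and 1.21 and 2.21 TPM in treated ZH11 (5.33 ± 0.25, adjusted p = 0.000252). All 4 OE1 libraries, treated or not, were far above all 4 ZH11 libraries for both genes. The assembled gene MSTRG.23514 had 15.9 and 17.3 TPM in treated OE1 and was listed at 0 in both treated ZH11 libraries. It is among the 81 genes that reached 1 TPM in no ZH11 library.

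Protein domains with at least 4 called members were looked up after the calls were known, so their counts are a description only. Over all genes tested 0.799% were higher and 0.154% lower. The hAT dimerisation domain had 10 of its 42 members higher and 0 lower, 5 of them also called higher in untreated OE1. The median of the 42 was -0.11 (0.16 against treated ZH11 replicate 1 alone), with 19 above 0 and 23 below. For the DUF659 domain, which sits in many of the same proteins, 8 of 18 members were higher, with a median log2 difference of 1.45 under treatment (1.63 against treated ZH11 replicate 1 alone) and 1.11 without it. Members of such families can be near-identical, and how the authors' counting shared reads between copies was not given in the sources used here, so which copy gave the reads is uncertain. The other families in that count were histones, described below, the O-methyltransferases, with 5 of 20 members higher, and the short-chain dehydrogenases, with 4 of 111.

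O-Methyltransferases transfer methyl groups to phenolics, flavonoids and indoles. LOC_Os04g09604, whose match is named as a probable inactive methyltransferase, had 60.4 and 57.7 TPM in treated OE1 and 15.2 and 15.1 TPM in treated ZH11 (1.89 ± 0.15, limma adjusted p = 0.0018). The call for this gene held without each of the 8 libraries in turn. LOC_Os11g20160 had 6.68 and 5.73 TPM in treated OE1 and 1.16 and 1.84 TPM in treated ZH11. LOC_Os11g20090 and LOC_Os12g25450 were lower in level, at 1.98 to 3.51 TPM in treated OE1 and 0.23 to 0.73 TPM in treated ZH11. The fifth gene, LOC_Os09g17560, is matched to acetylserotonin O-methyltransferase 1 of rice, which makes melatonin. It had 15.9 and 16.4 TPM in treated OE1, against 7.70 and 7.04 TPM in treated ZH11 (1.04 ± 0.14, adjusted p = 0.0232; 0.98 against replicate 1 alone), a call that ended whenever a library other than treated ZH11 replicate 1 was left out. Untreated plants had the reverse order, with 14.1 and 13.6 TPM in OE1 and 43.0 and 43.6 TPM in ZH11 (-1.58 ± 0.14, adjusted p = 0.00402). The OE1 level was thus close to the same in both conditions, while the ZH11 level was far lower with 2-nitroaniline than without it. The median difference of the 20 members was 0.08.

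For 8 genes the genotype difference under treatment itself differed from that without treatment, 7 in the direction of OE1 (0.0277% of those tested) and 1 in the direction of ZH11 (0.00396%), by the limma test of that difference. All 8 were also called in the treated comparison. The acetylserotonin O-methyltransferase match was 1 of them (adjusted p = 0.0187). LOC_Os12g14440, a jacalin-like lectin matched to the rice protein GOS9, had 45.0 and 55.1 TPM in treated OE1 and 7.55 and 10.4 TPM in treated ZH11 (2.37 ± 0.22, limma adjusted p = 0.00531). In untreated plants the order was the reverse, with 4.01 and 2.77 TPM in OE1 and 13 and 11.2 TPM in ZH11 (-1.59 ± 0.22, adjusted p = 0.0434). Jacalin-like lectins bind sugars and several respond to stress, and of the 14 jacalin-domain members it was the only gene called. Its treated call ended without either treated OE1 library.

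LOC_Os12g42750, matched to the maize Ac9 transposase, had 19.2 and 19.4 TPM in treated OE1, was listed at 0 in all 4 ZH11 libraries, and had 0.51 and 0.47 TPM in untreated OE1. LOC_Os09g07150, LOC_Os01g33720 and MSTRG.19809, of no described function, were listed at 0 in every library of the other 3 groups and had 16.5 and 17.4, 8.50 and 8.46, and 10.3 and 15.1 TPM in treated OE1. Of the 7 genes in the direction of OE1, 5, with these 4 among them, reached 1 TPM in the treated OE1 libraries alone, so they passed the filter only where they were high, and their count is not support for a difference between conditions. The values come from a table without read counts, so an entry of 0 is given only as listed. The gene in the direction of ZH11 was the glycosyltransferase LOC_Os09g34250, described with the lower genes.

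**Figure D2:**
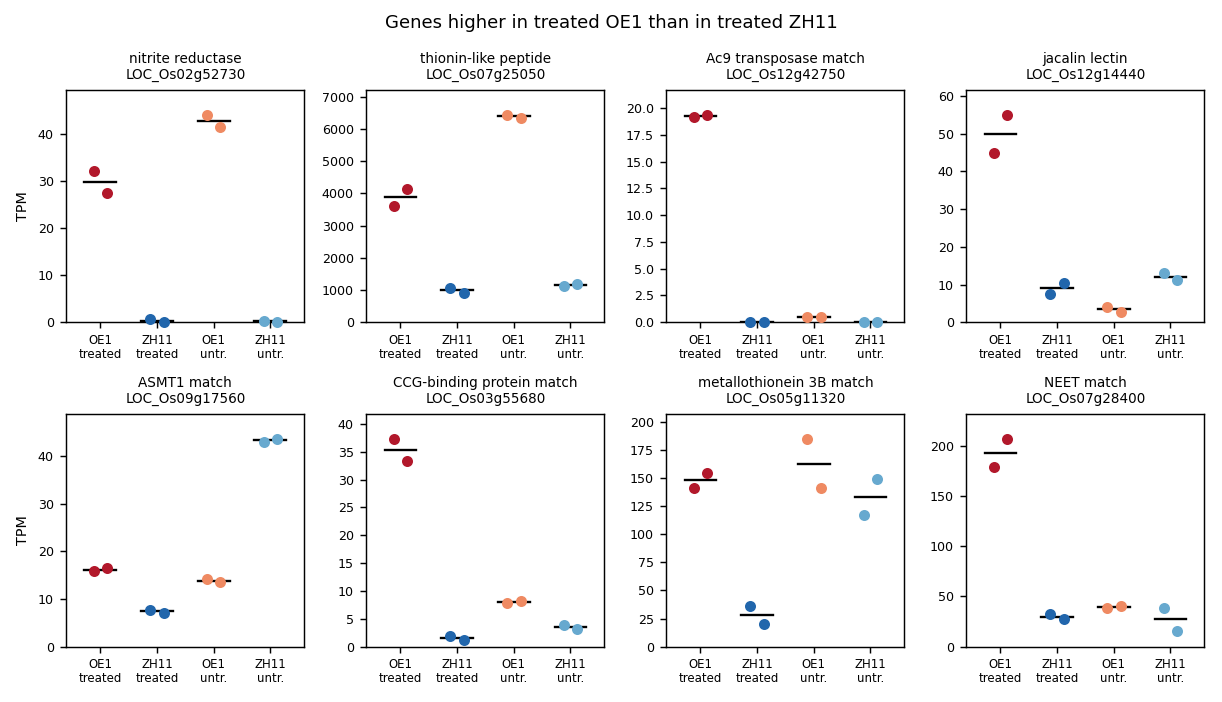
TPM per library (points) and group mean (line) for 8 genes higher in treated OE1; colours mark the 4 groups, and each panel has its own axis from 0. The nitrite reductase and thionin-like genes are high in all 4 OE1 libraries, whereas the Ac9 transposase match is at 19.2 and 19.4 TPM in treated OE1 and at most 0.51 TPM in every other library.

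Core histones package DNA, and the genes for H2A, H2B, H4 and the H3.2 type of H3 are mostly transcribed while DNA is being copied, whereas H3.3-type genes are transcribed throughout the cell cycle. Of the 54 histone-domain members 9 were higher in treated OE1 and 0 were lower (background 0.799% and 0.154%), and 44 had a difference above 0. Their median log2 difference was 0.55, or 0.40 against treated ZH11 replicate 1 alone, beside -0.03 and 0.02 over all members; in untreated plants it was -0.03. By best protein match, 4 of 6 H3.2-type, 4 of 13 H2A-type and 1 of 9 H4-type genes were called, and 0 of 9 H2B-type and 0 of 3 H3.3-type genes. The medians against treated ZH11 replicate 1 alone were 1.33 for H3.2, 0.58 for H2A, 0.61 for H4, 0.29 for H2B and -0.05 for H3.3. Some genes that were not called also differed at least 2-fold from replicate 1 alone. Among them were the H2B-type LOC_Os08g38300 (1.01, and 0.94 against both libraries) and the H4-type LOC_Os03g02780 (1.02, and 1.53 against both). The counts of calls by type thus depend on the ZH11 library used. The other 14 of the 54 matched proteins outside these types, most of them subunits of nuclear transcription factor Y. Of these 14, 0 were called, with a median of 0.02 (0.08 against replicate 1 alone), so values for all 54 are not for core histones only.

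LOC_Os01g64640, an H3 gene on chromosome 1 matched to H3.2, had 103 and 95.3 TPM in treated OE1, against 38.1 and 34.6 TPM in treated ZH11 (1.43 ± 0.16, limma adjusted p = 0.0137). In untreated plants it had 113 and 126 TPM in OE1 and 107 and 139 TPM in ZH11. The 2 treated ZH11 libraries were thus the low ones among all 8. LOC_Os03g17100, matched to H2A.5, followed the same order, with 225 and 228 TPM in treated OE1, 99.4 and 90.6 TPM in treated ZH11, and 267 to 336 TPM in the untreated libraries (1.25 ± 0.15, adjusted p = 0.0151). LOC_Os12g34510, matched to H2AXb, had 37.3 and 39.0 TPM in treated OE1 and 18.5 and 12 TPM in treated ZH11 (1.3 ± 0.21, adjusted p = 0.0452). LOC_Os02g45940, an H4 gene, had 88.7 and 95.3 TPM in treated OE1, 43.7 and 44.2 TPM in treated ZH11, and 90.3 to 95.6 TPM in the untreated libraries (1.05 ± 0.12, adjusted p = 0.0139). All 9 differed from treated ZH11 replicate 1 at least 2-fold, and in the test between conditions their adjusted p values were 0.192 to 0.418.

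The 54 histone-domain genes summed to 7057 and 7567 TPM in treated OE1 and 6509 and 5220 TPM in treated ZH11. Of the 14 MCM members, markers of dividing cells that form the helicase opening DNA for replication, 0 were called, with a median of -0.04 (0.16 against replicate 1 alone), and of 60 DNA replication genes 1 was higher. In bulk RNA, fewer cells of a type and less RNA per cell cannot be told apart. The 54 histone-domain genes are short, with a median of 872.5 nt against 1619 nt for all members. With the gradient along length removed from each library their median was 0.27, and the calls of LOC_Os06g06460, LOC_Os05g36280, LOC_Os05g02300, LOC_Os06g06510, LOC_Os01g31800 and LOC_Os02g45940 ended, at differences of 0.77 to 1.07 and adjusted p values of 0.0533 to 0.197. That of LOC_Os03g17100 ended too, at a difference of 0.96. The H4-type LOC_Os03g02780, not called before, passed with the gradient removed (1.22, limma adjusted p = 0.0279). Histone copies of a type are nearly identical, so how reads were divided among them is uncertain. The calls of all 9 ended when any OE1 library was left out. The part of gene length in the histone difference was not tested.

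**Figure D3:**
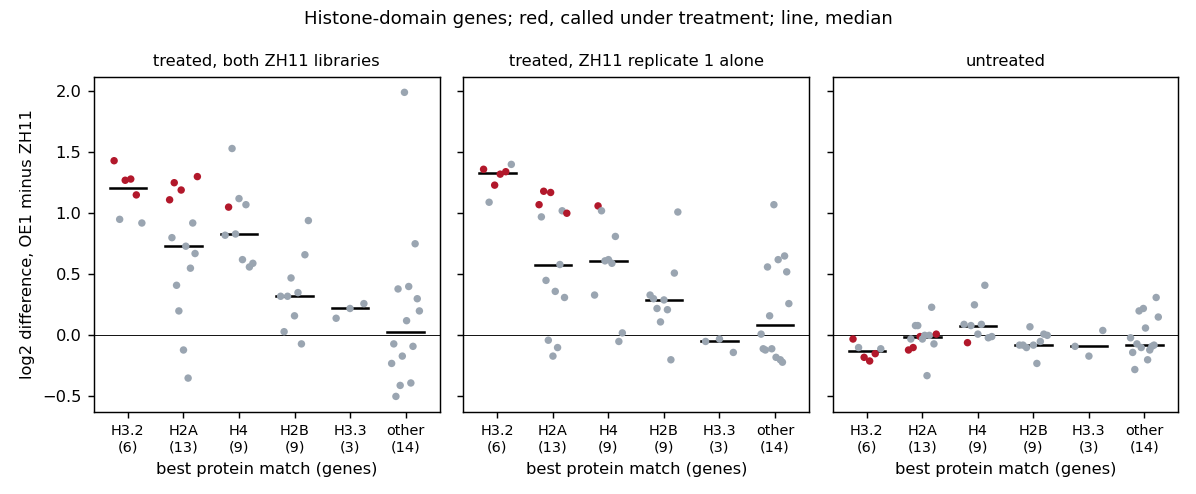
Log2(TPM + 1) difference, OE1 minus ZH11, of each of the 54 histone-domain genes (points) by the type of its best protein match, under treatment against both ZH11 libraries, under treatment against ZH11 replicate 1 alone, and in untreated plants; red marks the 9 called genes and the line the median. The H3.2-type genes sit between 0.92 and 1.43 under treatment, and all types have medians between -0.13 and 0.08 in untreated plants.

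Some abundant higher genes had untreated differences that were not called, and 6 of them, chosen after their values were seen and forming no list, had untreated differences of -0.08 to 0.66. LOC_Os07g28400, matched to NEET, a small iron-sulfur cluster protein, had 179 and 207 TPM in treated OE1 and 32.1 and 27.6 TPM in treated ZH11 (2.65 ± 0.36, limma adjusted p = 0.0235). Its untreated levels were 38.9 and 40.5 TPM in OE1 and 38.8 and 15.7 TPM in ZH11, so treated OE1 alone was high. LOC_Os10g41710 and LOC_Os02g54060, matched to chloroplast 10 kDa and 20 kDa co-chaperonins that help to fold imported proteins, had 125 and 141 TPM and 50.5 and 55.6 TPM in treated OE1, against 43.2 and 23.2 TPM and 21.0 and 16.8 TPM in treated ZH11. LOC_Os03g61680, matched to a ribosome-associated chaperone partner (huntingtin-interacting protein K), had 109 and 132 TPM in treated OE1 and 43.2 and 34.9 TPM in treated ZH11, with 41.2 to 47.4 TPM in the untreated libraries. LOC_Os10g40410, matched to a subunit of mitochondrial complex I, had 108 and 121 TPM in treated OE1 and 34.8 and 15.6 TPM in treated ZH11. LOC_Os05g11320, matched to metallothionein 3B, a metal-binding peptide, had 141 and 155 TPM in treated OE1 and 36.1 and 19.8 TPM in treated ZH11 (2.42 ± 0.28, adjusted p = 0.0145). For the metallothionein the treated ZH11 libraries were the low ones, since untreated plants had 185 and 141 TPM in OE1 and 117 and 149 TPM in ZH11. The 8 members of the metallothionein list, which does not hold this gene, had 0 called and a median of 0.43 (-0.27 against replicate 1 alone). All 6 calls ended without either treated OE1 library, and those of LOC_Os07g28400, LOC_Os10g41710, LOC_Os02g54060 and LOC_Os10g40410 also without either untreated OE1 library. The calls of LOC_Os10g41710 and LOC_Os10g40410 ended without either untreated ZH11 library as well, and that of LOC_Os07g28400 without treated ZH11 replicate 2 (2.55, adjusted p = 0.0548). None of the 6 was called in the limma test between conditions.

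Of the 172 pathogenesis-related members 2 were higher (1.16%, near the 0.799% over all genes tested) and 0 lower, with a median of 0.15 beside -0.03 over all members. Both were thaumatin-like genes, a family of secreted proteins that many plants make on infection. LOC_Os06g47600 had 14.6 and 17.1 TPM in treated OE1 and 4.35 and 3.12 TPM in treated ZH11 (1.84 ± 0.26, limma adjusted p = 0.0266). LOC_Os12g43440 had 7.79 and 8.50 TPM in treated OE1 and 2.46 and 1.56 TPM in treated ZH11 (1.62 ± 0.21, adjusted p = 0.0216). LOC_Os03g55680, matched to CCG-binding protein 1, known in Arabidopsis for a part in pollen tube guidance, was among the largest differences, with 37.3 and 33.4 TPM in treated OE1 and 1.96 and 1.16 TPM in treated ZH11 (3.84 ± 0.21, adjusted p = 0.000356). Its untreated levels were 7.77 and 8.20 TPM in OE1 and 3.81 and 3.16 TPM in ZH11, and the test of the difference between conditions gave an adjusted p of 0.0544. The elastin-annotated LOC_Os08g37630 had 14.4 and 21.6 TPM in treated OE1, 0.28 and 0.47 TPM in treated ZH11, and 0.87 to 4.25 TPM in the untreated libraries. The thaumatin-like and elastin-annotated calls ended without any OE1 library, that of LOC_Os06g47600 also without treated ZH11 replicate 2 (1.65, adjusted p = 0.0501), and that of LOC_Os03g55680 held throughout.

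For the 75 higher genes whose untreated levels were alike, the side that had moved was read from the untreated libraries of the same genotype, which shares the treated libraries with the call and so is a description only. Treated OE1 was above untreated OE1 in 65 of them and treated ZH11 was below untreated ZH11 in 58. The median shift was 1.03 in OE1 and -0.48 in ZH11 (-0.29 with treated ZH11 replicate 1 alone), and it was larger in OE1 for 54 genes and in ZH11 for 21. The 75 include genes that passed the filter only through treated OE1, such as LOC_Os09g07150, LOC_Os01g33720 and MSTRG.19809. For these a larger shift in OE1 was fixed in advance, which tilts the medians and the split toward OE1. For the 19 lower genes with alike untreated levels, the shift was larger in ZH11 for 14 and in OE1 for 5, with medians of -0.18 in OE1 and 0.91 in ZH11 (0.94 with replicate 1 alone).

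The 39 genes lower in treated OE1 included 1 or 2 genes each of several enzyme families that handle foreign compounds. Over all genes tested 0.154% were lower. With 1 or 2 calls per family, the values describe single genes and not the families. UDP-glycosyltransferases couple small molecules to sugars. LOC_Os09g34250 on chromosome 9, whose match is the barley glucosyltransferase UGT13248, had 15.8 and 14.0 TPM in treated OE1, against 57.8 and 56.6 TPM in treated ZH11 (-1.87 ± 0.15, limma adjusted p = 0.00224). Untreated levels were 7.08 and 6.71 TPM in OE1 and 4.73 and 4.09 TPM in ZH11, so that both genotypes were higher with the chemical and treated ZH11 was the highest group. The genotype difference with treatment differed from that without it (adjusted p = 0.0378), and the value against treated ZH11 replicate 1 alone was -1.89. Of the 114 UDP-glycosyltransferase members it was the only gene called, and the median of the family was 0.09. Of the lower genes named here, LOC_Os01g42160 was called whichever library was left out, but it entered the tests only through ZH11. The call of LOC_Os09g34250 ended without treated OE1 replicate 2 and that of LOC_Os02g54290 without treated OE1 replicate 1. The others ended without either treated OE1 library.

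Cytochromes P450 insert oxygen into small molecules, and 2 of 207 members were lower and 0 higher, with a median of -0.05. LOC_Os07g44110, annotated as a P450 of the 72A type, had 8.98 and 6.59 TPM in treated OE1 and 24.5 and 36.0 TPM in treated ZH11 (-1.82 ± 0.22, limma adjusted p = 0.0164). Its untreated levels were in the reverse order, at 16.4 and 17.1 TPM in OE1 and 7.48 and 7.63 TPM in ZH11, a difference that was not called. LOC_Os03g55240, matched to P450 81Q32, had 97.8 and 83.7 TPM in treated OE1 and 174 and 226 TPM in treated ZH11 (-1.12 ± 0.18, adjusted p = 0.0427). It stood at 13.6 to 16.4 TPM in all 4 untreated libraries, so both genotypes were higher with 2-nitroaniline. Against replicate 1 alone its difference was -0.94, under 2-fold, and without treated ZH11 replicate 2 its adjusted p was 0.0501.

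Other oxidoreductases followed. LOC_Os11g14910, matched to an NADPH-dependent 2-alkenal reductase, which reduces activated double bonds of reactive aldehydes and ketones, had 32.3 and 23.9 TPM in treated OE1 and 62.9 and 60.9 TPM in treated ZH11 (-1.13 ± 0.19, limma adjusted p = 0.0466). The 43 zinc-binding dehydrogenase members, to which it belongs, had 1 called higher and 1 lower, with a median of 0.15. The call ended without treated ZH11 replicate 2 (adjusted p = 0.0607), although the difference was -1.15. LOC_Os07g44440, the 1-Cys peroxiredoxin B match, a thiol enzyme that removes peroxides, had 322 and 321 TPM in treated OE1 and 663 and 977 TPM in treated ZH11 (-1.32 ± 0.20, adjusted p = 0.0387). Its untreated libraries held 98.8 to 122 TPM, so all 4 treated libraries were above all 4 untreated libraries. With the length gradient removed the difference was -1.63 and the adjusted p 0.0678, which ends the call although the difference is larger. The neighbouring 1-Cys peroxiredoxin A match, LOC_Os07g44430, had 95.6 and 81.8 TPM in treated OE1 and 194 and 117 TPM in treated ZH11, which was not called (-0.76 ± 0.24, adjusted p = 0.226). Against replicate 1 alone its difference was -1.12. With the length gradient removed it was -1.06 and passed the thresholds (limma adjusted p = 0.0246). LOC_Os03g22020, matched to the class III peroxidase 52, which oxidises phenolics in the cell wall, had 7.07 and 7.80 TPM in treated OE1 and 14.8 and 17.5 TPM in treated ZH11 (-1.02 ± 0.16, adjusted p = 0.0427). It differed from replicate 1 alone by -0.91, and it was the only gene called of 112 peroxidase members, whose median was -0.01.

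**Figure D4:**
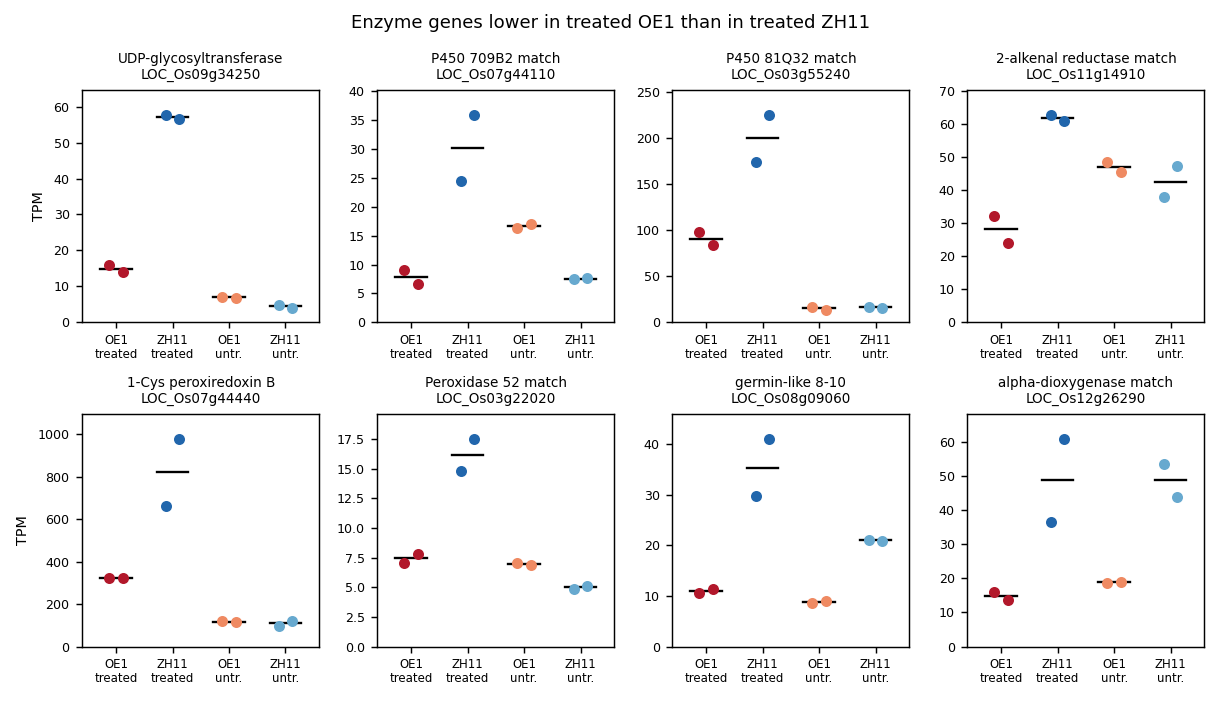
TPM per library (points) and group mean (line) for 8 enzyme genes lower in treated OE1 than in treated ZH11; colours mark the 4 groups, and each panel has its own axis from 0. For the P450 81Q32 match and the 1-Cys peroxiredoxin both treated groups are above both untreated groups, whereas the germin-like and alpha-dioxygenase genes have lower means in OE1 in both conditions, with untreated differences of -1.16 and -1.32 that were not called.

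Of the 195 phenylpropanoid members 4 were lower (2.05%, beside 0.154% over all genes tested) and 1 higher (0.513%, beside 0.799%). These 4 were the peroxidase LOC_Os03g22020 and the peroxiredoxin LOC_Os07g44440, both described above, and the beta-glucosidases LOC_Os10g17650 and LOC_Os05g30350. Of the 4, 2 differed at least 2-fold from treated ZH11 replicate 1 alone. The other lower genes in this paragraph are not among the 4. Of the 160 starch and sucrose members 2 were lower (1.25%) and 0 higher. These 2 were the same beta-glucosidases, and 1 of them differed at least 2-fold from replicate 1 alone. Beta-glucosidases release small molecules from their sugar conjugates: LOC_Os10g17650 (beta-glucosidase 34) had 6.49 and 5.50 TPM in treated OE1 and 14.8 and 20.7 TPM in treated ZH11 (-1.41 ± 0.19, limma adjusted p = 0.0247). Both treated groups were below the 22.9 to 30.1 TPM of the untreated libraries. LOC_Os05g30350 (beta-glucosidase 22) had 41.9 and 37.1 TPM in treated OE1 and 73.2 and 88.2 TPM in treated ZH11, a difference of -1.01 that was -0.87 against replicate 1 alone. The chalcone synthase 1 gene, LOC_Os11g32650, which starts flavonoid synthesis, had 47.5 and 44.0 TPM in treated OE1 and 97.3 and 92.2 TPM in treated ZH11 (-1.04 ± 0.13, adjusted p = 0.0181). The inositol oxygenase gene LOC_Os06g36560, which feeds sugar acids into cell wall synthesis, had 98.7 and 93.7 TPM in treated OE1 and 227 and 266 TPM in treated ZH11 (-1.34 ± 0.14, adjusted p = 0.00928). The pyruvate phosphate dikinase gene LOC_Os05g33570 had 129 and 92.1 TPM in treated OE1 and 238 and 327 TPM in treated ZH11, with 63.7 to 81.5 TPM in the untreated libraries. The last 3 genes were chosen after their values were seen.

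Some lower genes had lower values in OE1 in both conditions, not all of them called without treatment. LOC_Os01g42160, of the maternally expressed gene (MEG) family of small secreted peptides known from maize, had 0.06 and 0 TPM in treated OE1 and 14.2 and 23.7 TPM in treated ZH11, and was listed at 0 in both untreated OE1 libraries against 12.7 and 12.2 TPM in untreated ZH11 (treated adjusted p = 0.000544). It was the only lower gene called under every alternative tried. However, it reached 1 TPM in no OE1 library, so it entered the tests only through ZH11 and its call is a description only. LOC_Os11g02379, a lipid transfer protein gene, had 30.2 and 27.9 TPM in treated OE1 and 91.7 and 86.5 TPM in treated ZH11 (-1.58 ± 0.14, limma adjusted p = 0.00352), and was also called lower in untreated OE1 (-1.07). So were LOC_Os12g21784, matched to calcium-dependent protein kinase 7 (-1.90 under treatment and -1.80 without it), and LOC_Os01g23710, annotated as a no apical meristem (NAC) protein (-1.69 and -1.38). LOC_Os03g56930, annotated as app1, had 0.99 and 0.78 TPM in treated OE1 and 3.8 and 6.76 TPM in treated ZH11, with an untreated difference of -0.88 that was not called. The alpha-dioxygenase LOC_Os12g26290, which oxidises fatty acids, had 16 and 13.6 TPM in treated OE1 and 36.5 and 60.9 TPM in treated ZH11 (-1.61 ± 0.25, adjusted p = 0.0372). Its untreated difference of -1.32 was not called. Germin-like proteins are secreted cupins: LOC_Os08g09060 had 10.5 and 11.3 TPM in treated OE1 and 29.7 and 41 TPM in treated ZH11 (-1.60 ± 0.18, adjusted p = 0.0131), and its untreated difference of -1.16 was not called (adjusted p = 0.0646). Of 31 germin and cupin members 2 were lower and 1 was higher, LOC_Os09g39530, with 6.90 and 5.27 TPM in treated OE1 and 1.54 and 1.48 TPM in treated ZH11.

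For a few lower genes the untreated levels were closer together or in the reverse order. LOC_Os01g37000, annotated as a carboxyl-terminal peptidase, had 43.2 and 34.3 TPM in treated OE1 and 114 and 200 TPM in treated ZH11 (-1.94 ± 0.26, limma adjusted p = 0.0232), with 158 to 224 TPM in the untreated libraries. Treated OE1 was the low group. LOC_Os08g32840, matched to alpha carbonic anhydrase 7, had 5.81 and 5.70 TPM in treated OE1 and 18.9 and 29.9 TPM in treated ZH11 (-1.88 ± 0.22, adjusted p = 0.0144), and 13.7 and 15.2 TPM in untreated OE1 against 9.65 and 10.1 TPM in untreated ZH11. LOC_Os02g54290, a short gene matched to TONSOKU, a protein for replication and chromatin upkeep, had 0 and 0.47 TPM in treated OE1 and 4.65 and 6.13 TPM in treated ZH11 (adjusted p = 0.0101). The test of the difference between conditions gave adjusted p values of 0.192, 0.145 and 0.434 for these 3 genes, so that the difference between conditions was not called.

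The rice relatives of the transgene's family did not pass the test. All 11 old yellow enzyme members lay between -0.38 and 0.36, with a median of 0.01. LOC_Os06g11210 (OPR5), the most abundant of them, had 70.7 and 65.4 TPM in treated OE1 and 74.3 and 98.2 TPM in treated ZH11 (-0.33 ± 0.18, limma adjusted p = 0.385). LOC_Os08g35740 (OPR7), the peroxisomal enzyme of jasmonate synthesis, had 43.5 and 39.0 TPM in treated OE1 and 36.9 and 45.4 TPM in treated ZH11 (0.01 ± 0.15, adjusted p = 0.978). LOC_Os06g11290 (OPR1) had 20.8 and 14.1 TPM in treated OE1 and 10.9 and 15.9 TPM in treated ZH11, so that the groups overlapped. The assembled gene MSTRG.15563 (OPR13 match) had 3.74 and 4.11 TPM in treated OE1 and 6.66 and 1.18 TPM in treated ZH11, and was called higher only without treated ZH11 replicate 1 (adjusted p = 0.044). Glutathione S-transferases, with 77 members, had 0 called in either direction and a median of -0.03, with members from -1.58 to 0.91. Their summed level was 3515 and 3570 TPM in treated OE1 and 4074 and 3382 TPM in treated ZH11.

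Several further lists had no called gene. The 71 WRKY, 77 NAC-domain, 195 MYB and 90 bHLH members and the 105 ABC and 43 MATE transporter members had 0 called, and of the 87 AP2/ERF members 1 was higher. The called gene LOC_Os01g23710 carries the NAC description but is not among the 77, which were taken by protein domain. Wall-loosening genes had most members above 0 with none called. Of the 39 expansin members 36 were above 0 with a median of 0.28, and of the 20 xyloglucan-modifying members 17 were above 0 with a median of 0.46; against treated ZH11 replicate 1 alone the medians were 0.31 and 0.47, and in untreated plants -0.07 and 0.03. Other lists had a median that depended on the ZH11 replicate. For the 340 ribosomal protein members, which are short genes, it was 0.14 against replicate 1 and 0.45 against replicate 2. For the 25 light-harvesting members it was 0.04 against replicate 1 and 0.49 against replicate 2. For the 265 NB-ARC members, long genes of immune receptors, it was -0.05 against replicate 1 and -0.80 against replicate 2.

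Over all members the difference went with gene length. Genes of over 500 and up to 1000 nt had a median difference of 0.06 against treated ZH11 replicate 1 and of 0.57 against replicate 2, and genes of over 5000 nt had -0.09 and -1.17. Calls went with length too: 3.05% of the genes of up to 500 nt were called higher, beside 0.579% of those of over 1000 and up to 2000 nt and 0.179% of those of over 2000 and up to 3500 nt, although 4 of the 281 genes of over 5000 nt (1.42%) were called higher as well. The 202 higher genes had a median length of 864 nt and the 39 lower genes of 1528 nt, beside 1619 nt for all members. Called both without treated ZH11 replicate 2 and with the length gradient removed were 120 of the 202 and 22 of the 39, and the 120 had a median length of 896 nt. Of these 120 higher genes 69 were also called in untreated plants and 29 had untreated differences within 0.5. The part of gene length in the remaining difference was not tested.

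Among the called genes, those nearest 0 against treated ZH11 replicate 1 alone were still on the same side of it. LOC_Os06g01790, matched to a membrane protein, had 22.9 and 22.6 TPM in treated OE1 and 11.3 and 7.47 TPM in treated ZH11, a difference of 0.95 against replicate 1 and 1.49 against replicate 2. LOC_Os01g03750, matched to MAO HUZI 4, a chloroplast protein of the rice ethylene response, had 30.9 and 30.9 TPM in treated OE1 and 15.3 and 10.1 TPM in treated ZH11 (0.97 against replicate 1 and 1.53 against replicate 2). The germin-like LOC_Os08g09080 had 5.95 and 6.07 TPM in treated OE1 and 12.4 and 16.2 TPM in treated ZH11 (-0.94 and -1.29). The assembled gene MSTRG.18913 had 7.56 and 7.66 TPM in treated OE1 and 3.3 and 3.02 TPM in treated ZH11, a difference of 1.0 against replicate 1 and 1.10 against replicate 2, with an adjusted p of 0.0602 without replicate 2. Of the 47 called genes named by rule, 12 were not called without treated ZH11 replicate 2.

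**Figure D5:**
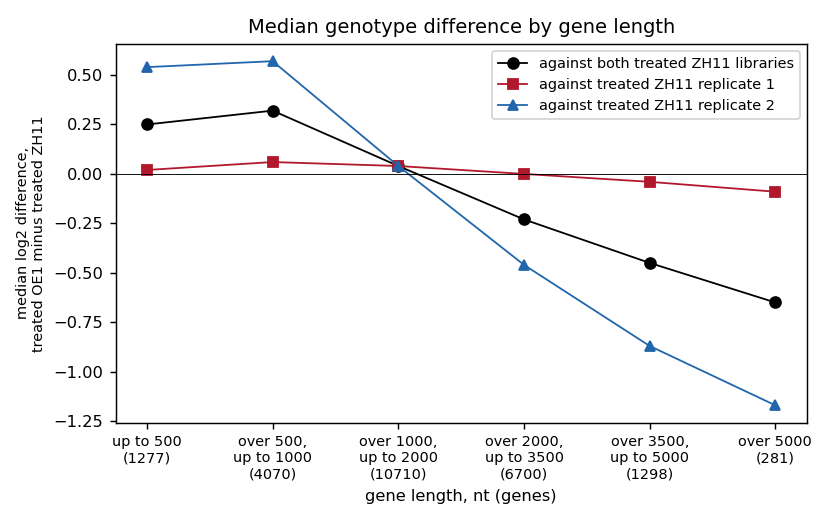
Median log2(TPM + 1) difference, treated OE1 minus treated ZH11, for members grouped by gene length (number of genes in brackets), against both treated ZH11 libraries and against each alone. Against replicate 1 the medians stay between -0.09 and 0.06, and against replicate 2 they run from 0.57 to -1.17.

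In the authors' deposited table of the same comparison, 195 genes were listed as higher and 65 as lower in treated OE1. Of those, 105 higher genes were also called here, 53.8% of the authors' deposited table and 52% of the 202. Of the lower genes 23 were shared, 35.4% of the authors' deposited table and 59.0% of the 39. Against treated ZH11 replicate 1 alone, 183 of the 195 but 35 of the 65 genes in the authors' deposited table differed at least 2-fold in the listed direction.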

How the data were processed

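Per the labels' protocols, total RNA was extracted with Trizol and libraries were made with a SMARTER mRNA kit. Cufflinks 2.2.1 is listed in the submitters' processing notes. Aligner, counting tool, strand setting and build are not given in the sources used here. The authors deposited TPM per gene and library, and tables of called genes with estimated counts, log2 fold changes and p-values. The authors' p-values, estimated counts and log2 values served only to count shared calls. The deposited trimming table gave the count of reads, the percent of GC and the total bases, from which the mean read length was taken.

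The 25281 genes reaching 1 TPM in 2 or more of the 8 libraries were tested with limma 3.58.1 in R 4.3.3 on log2(TPM + 1), with 4 group means, an eBayes trend and Benjamini-Hochberg adjustment. A gene was called at an adjusted p under 0.05 and a log2 difference of at least 1. Differences on this scale understate those of low genes. TPM keep no depth, so no counting error is given. Scaling alternatives used edgeR 4.0.16 factors on TPM. The steps were tested on simulated data with the same spread in every group and no length gradient. That setting differs from the treated ZH11 libraries here, so it gives no measure of how reliable the calls are.

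Lists (71) came from Pfam domains, KEGG pathways and descriptions in the deposited annotation. Members, lists and tests were chosen with earlier results of these data known. Named genes were the 12 largest differences per direction at a mean of at least 5 TPM with an annotation and 2-fold from treated ZH11 replicate 1, up to 2 per list with at least 2 calls, the genes of the test between conditions, calls nearest 0 against replicate 1, and the old yellow enzyme genes, 58 in all, of which 1 is not reported here; other names were chosen after their values were seen. Protein matches are the best Swiss-Prot match in the annotation. Chromosomes were read from locus identifiers. No sequences were used here.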

Additional observations from a re-analysis of the deposited data

Results flagged for a closer look

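The genotype difference under 2-nitroaniline differed from that in untreated plants for 8 genes, by limma's test of the difference itself (adjusted p under 0.05, n = 2 libraries in each of 4 groups). Values are the difference under treatment minus that without it, on the log2(TPM + 1) scale, and for genes listed at 0 in a group they depend on the 1 that was added. Of the 7 genes in the direction of OE1, 5 reached 1 TPM in the treated OE1 libraries alone and so entered the test only where they were high. LOC_Os12g14440, the jacalin-like lectin, had 3.95 ± 0.32 (SE, limma adjusted p = 0.0229), and LOC_Os09g17560, the acetylserotonin O-methyltransferase match, had 2.61 ± 0.20 (adjusted p = 0.0187). For both genes the direction was reversed between the conditions. LOC_Os12g42750, the Ac9 transposase match, had 3.77, LOC_Os09g07150 4.16, MSTRG.19809 3.76 and LOC_Os01g33720 3.24. LOC_Os09g34250, the UDP-glycosyltransferase, was the only 1 of the 8 with a negative sign, at -2.42 ± 0.22 (adjusted p = 0.0378). Without any of the OE1 libraries, or any of the untreated ZH11 libraries, limma called none of the genes in this test, as against 12 and 16 without treated ZH11 replicate 2 and 1336 and 1373 without treated ZH11 replicate 1.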

How the results depend on the processing

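None of the 47 named and called genes changed its direction under any of the 23 alternatives, whereas 7 of the 11 old yellow enzyme genes, not called and within 0.27 of 0, changed sign under at least 1 of them. The treated comparison (202 higher, 39 lower) gave 122 higher with a filter at 5 TPM, 126 and 19 with no filter, 42 and 2 from the compared groups alone, 49 and 8 with weights by library spread, 395 and 80 from the shorter-read libraries alone, and 59 lower with the length gradient removed. The test between conditions (7 higher, 1 lower) gave 2 higher with the filter at 5 TPM, 5 lower with no filter, 4 lower with the length gradient removed, 2 lower with TMM or median-of-ratios factors, 1 and 0 with the weights, 115 and 33 from the shorter-read libraries, and 0 and 0 with a pseudocount of 0.1, where 904 and 648 genes had an unadjusted p under 0.05. The shorter-read fit left out replicate 2 of treated and of untreated ZH11. With 1 library in each ZH11 group, its spread came from the OE1 libraries alone, so its counts are not comparable with the others. The cause of these shifts was not tested.

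Leaving out each library in turn gave 46 to 2093 higher and 2 to 1761 lower genes in the treated comparison, and 0 to 1336 and 0 to 1373 in the test between conditions. The share of calls that were higher was 83.8%, but 54.3% without treated ZH11 replicate 1 and 95.5% from the compared groups alone. Of the 47 named and called genes, 17 were called without each of the 8 libraries in turn and 16 under all of the other refits as well.

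Same-numbered libraries of treated OE1 and treated ZH11 had deviations with a correlation of -0.28. Between other groups the correlations ran from -0.144 to 0.233, the highest between untreated and treated ZH11. Replicate 2 of ZH11 had the longest reads and the lowest GC in both conditions. These values cannot tell whether the replicate numbers pair the libraries. With the replicate block 111 genes were higher and 19 lower, and 0 and 0 in the test between conditions, where 889 and 541 had an unadjusted p under 0.05. Depth is not recorded in TPM, and 2 libraries per group limit the precision.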
